A study of Mus musculus with 24 samples.

Results

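The proteasome genes described here are 39 of the 54532 genes in the deposited expression table. They are the protein-coding genes named Psma, Psmb, Psmc or Psmd with a number, together with Psme1 to Psme4 and Psmf1, that reached an FPKM (fragments per kilobase of exon and per M, or mega, fragments of the library) of 1 in at least 4 of 24 libraries. The immunoproteasome subunits Psmb8, Psmb9 and Psmb10 were not members and were measured beside them. The name rule matched 41 genes. The testis-type subunit Psma8 reached an FPKM of 1 in 2 libraries and the thymus-type subunit Psmb11 did not exceed 0.025, so both stayed below the filter. The members comprised 7 subunits of the 20S alpha ring, 7 of the 20S beta ring, 6 ATPases and 11 other subunits of the 19S cap, 3 chaperones of cap assembly, 4 activators and 1 inhibitor.

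Messenger RNA was sequenced from primary macrophages that had been grown for 7 days from bone marrow of C57BL/6 mice in L929-conditioned medium. The cells came from wild-type (WT) or Trem2(-/-) mice (KO), which lack a lipid-sensing receptor of macrophages, and were left untreated, given apoptotic cell culture medium (ACM) for 24 h, or given 500 nM sphingosine-1-phosphate (S1P), a signalling lipid, for 24 h. ACM was serum-free medium taken from AML12 hepatocytes after palmitate at 800 µM had driven them into apoptosis. Each of the 6 groups held 4 libraries, and a library is named below by its group and its number. The labels name neither the mice nor the cultures behind the libraries, so the p-values measure the spread between libraries, which may be technical. They also name no vehicle or medium for the untreated cells.

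The proteasome degrades proteins that carry ubiquitin. The alpha and beta rings stack into the barrel-shaped 20S core, in which Psmb5, Psmb6 and Psmb7 are the catalytic subunits. The 19S cap binds ubiquitin chains, removes them, and unfolds the substrate with its ATPase ring. The activators Psme1 and Psme2 (PA28 alpha and beta) can replace the cap and are known, with the immunoproteasome subunits, as interferon-induced genes of antigen presentation. Transcription of proteasome genes as a group is driven by Nfe2l1 (NRF1), a membrane-bound factor that is released when proteasome capacity falls short.

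Depth recovered from the values was 16.6 to 25.2 M reads per library, and 443 to 11839 reads stood behind a single value of a member. Trem2, the targeted gene, was at 74.5 to 109 FPKM in the 12 WT libraries and at 35.7 to 40.7 in 11 of 12 KO libraries. The library labelled KO untreated 81 went against its label, with 79.6 FPKM. That library exceeded the other 3 untreated KO libraries in 34 of 39 members and was below them in 1. The like count over all genes was not made, so it does not set the members apart from other genes. Counts for comparisons that use the untreated KO libraries are therefore given with and without it. WT libraries carry numbers from 1 to 28 and KO libraries from 79 to 94, with each treatment in consecutive numbers, so genotype and treatment cannot be told apart from the order that these numbers may stand for. The macrophage markers Adgre1 and Csf1r were present in all libraries, at 128 to 221 and 227 to 352 FPKM. Hepatocyte markers summed to at most 1.44 FPKM in any library, nearly all of it Apoa2, with Alb at 0 in 21 of 24. Fibroblast markers summed to at most 0.0797.

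In level, the members spanned 28.4-fold. Psmd8, a lid subunit of the cap, had the highest mean over the 24 libraries at 127 FPKM, followed by the catalytic subunits Psmb5 at 110.0 and Psmb6 at 103, and Psmd2, which docks ubiquitin receptors on the cap base, at 91.04. Psmd9, a chaperone of the ATPase ring, was lowest at 4.46 FPKM, preceded by the inhibitor Psmf1 (PI31) at 4.80, the chaperone Psmd5 at 7.34 and Psme4 (PA200), an activator of nuclear proteasomes, at 14.5. The members' median was 35.5 FPKM, against 7.30 for the 11377 genes tested. The deposited FPKM divides by the length of all annotated exons of a gene, which was a median of 1.69 times and up to 3.36 times the length of the principal transcript. Per kilobase of principal transcript, Psmd8 and Psmb6 led with 251 and 242 reads per M reads, the 14 core subunits had a median of 107 and the 17 cap subunits one of 62.9. The third catalytic subunit, Psmb7, was at 68.6 on that scale, below Psmb5 at 110.0 and Psmb6. Reads of all annotated exons enter that scale, so it can overstate genes with reads outside the principal transcript.

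**Figure D1:**
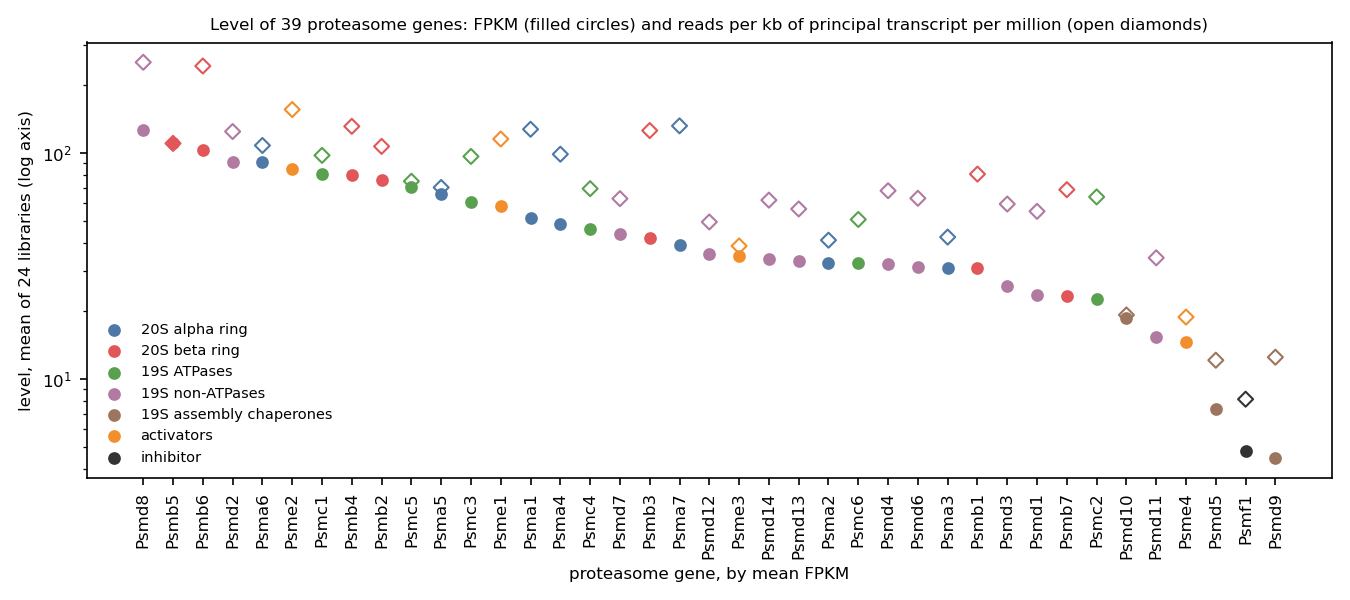
Mean level of each of the 39 proteasome genes over 24 libraries on a log axis, coloured by place in the particle, as deposited FPKM (filled circles) and as reads per M reads per kilobase of the principal transcript (open diamonds). Psmd8, Psmb5 and Psmb6 head the FPKM order and Psmd9 ends it at 4.46; core and cap subunits interleave.

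In WT macrophages given S1P, part of the proteasome genes were higher than in untreated cells by small amounts, unevenly within the particle. Psmb5, Psmd8, Psmd11 and Psmb6 rose most, by 0.54, 0.45, 0.40 and 0.39 on the log2(FPKM + 1) scale on which all differences below are given. At an adjusted p under 0.05 (limma, Benjamini-Hochberg over all genes tested), 18 of 39 members were higher and 1 was lower. Of all genes, 25.2% were higher and 27.2% lower in the same comparison. The median difference was 0.09 over the members and 0.00 over all genes.

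Among the catalytic subunits, Psmb5 carries the chymotrypsin-like activity that bortezomib inhibits. It was at 89.2, 110.1, 103 and 103 FPKM in untreated WT libraries, at 113, 112, 113 and 112 after ACM, and at 134, 151, 156 and 152 after S1P. In KO libraries it was at 95.7, 90.9, 107 and 97.3 untreated, at 98.2, 99.2, 102 and 101 after ACM, and at 98.6, 100.2, 98.8 and 102 after S1P. All 4 WT libraries given S1P lay above the 20 others. The S1P difference in WT was 0.54 ± 0.053 (SE, adjusted p = 2.43e-08). Of the Psmb5 transcript, 78.9% matched other annotated genes over words of 50 bases, mainly the pseudogene Gm3375 at a mean of 0.526 FPKM, and the microRNA gene Mir686 lies within its exons.

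Psmb6 carries the caspase-like activity. It was at 98.5, 93.5, 102 and 93.6 FPKM in untreated WT libraries, at 106, 101, 114 and 111 after ACM, and at 117, 127, 137 and 128 after S1P. In KO libraries the values were 92.1, 90.5, 106 and 92.4 untreated, 94.1, 87.3, 108 and 94.5 after ACM, and 94.3, 94.9, 96.6 and 95.1 after S1P. The WT libraries given S1P were again above every other library (0.39 ± 0.059 against untreated WT, adjusted p = 8.16e-06). Psmb7, the trypsin-like subunit, did not pass the test, with 23.7 ± 0.40 FPKM after S1P and 23.6 ± 0.93 untreated (SD, n = 4 each; difference 0.00 ± 0.054 SE). Of the remaining beta subunits, which have no active site, Psmb1 rose by 0.09, while Psmb2, Psmb3 and Psmb4 were at -0.01, 0.10 and 0.05 and were not called.

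In the cap, Psmd8 and Psmd11 are subunits of the lid. Psmd8 was at 116, 117, 118 and 118 FPKM in untreated WT libraries, at 131, 134, 132 and 138 after ACM, and at 147, 155, 173 and 166 after S1P. In KO libraries it was at 112, 116, 123 and 114 untreated, at 119, 113, 119.6 and 117 after ACM, and at 109.8, 118, 117 and 118 after S1P. The 3 WT groups did not overlap and the KO groups did (S1P against untreated WT, 0.45 ± 0.041, adjusted p = 8.96e-09).

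Psmd11 was at 13.3, 13.7, 15.0 and 13.7 FPKM in untreated WT libraries, at 15.9, 16.1, 15.7 and 16.1 after ACM, and at 16.6, 18.2, 20.1 and 20.03 after S1P. The KO values were 14.3, 14.1, 15.6 and 14.2 untreated, 14.1, 13.3, 13.9 and 13.9 after ACM, and 13.9, 15.4, 15.4 and 14.5 after S1P. Its order in WT was the same as that of Psmd8, without overlap (S1P against untreated WT, 0.40 ± 0.050, adjusted p = 6.57e-07). In these 4 genes, library WT S1P 25 was the lowest of its group. It was the lowest in 9 of the 18 raised members, and WT S1P 26 in 7. How often this holds in other genes raised by S1P was not counted, so it is no trait of the members.

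The other lid and base subunits moved less. Psmd7 and Psmd14, the latter the deubiquitinase of the lid, rose by 0.24 and 0.19. Psmd4, a ubiquitin receptor, rose by 0.17 and Psmd1, a scaffold of the base, by 0.09, a call lost without WT untreated 1 or 2 or without WT S1P 25 or 28 (0.08 each). Psmd2 was at 86.6, 90.7, 90.1 and 87.4 FPKM untreated, at 95.4, 94.5, 98.6 and 98.0 after ACM and at 100.4, 99.5, 102 and 99.6 after S1P in WT, a rise with S1P of 0.17. The KO values were 83.0, 82.3, 91.9 and 87.05 untreated, 85.8, 86.96, 85.6 and 86.7 after ACM and 87.2, 88.8, 89.9 and 87.1 after S1P. In KO, the S1P values lay above the ACM values (0.03, not called), and above the untreated ones where the library labelled KO untreated 81 was left out (0.07, not called). Psmd3, Psmd6, Psmd12 and Psmd13 were at -0.02, 0.03, 0.07 and -0.01 and were not called.

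Of the 6 ATPases, Psmc5, Psmc2 and Psmc1 rose with S1P in WT, by 0.22, 0.15 and 0.13. Psmc3 was the 1 member called lower, by -0.09 ± 0.030. Its untreated WT values were 60.3, 61.7, 63.7 and 66.2 FPKM, followed by 59.8, 57.6, 60.8 and 59.5 after ACM and 60.5, 57.9, 59.8 and 58.9 after S1P. In KO, Psmc3 was at 60.2, 56.7, 59.1 and 60.6 untreated, at 61.3, 60.2, 61.9 and 60.8 after ACM and at 61.0, 58.8, 62.1 and 61.3 after S1P. The WT S1P and untreated values overlapped, and the call was lost without WT untreated 4 (a difference of -0.06) or WT S1P 26 (-0.07). Psmc4 and Psmc6 were at 0.09 and 0.08 and were not called.

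In the alpha ring, which gates entry to the core, Psma3 and Psma7 rose with S1P in WT, by 0.18 and 0.14. Psma7 was at 39.3, 39.7, 39.6 and 39.3 FPKM untreated, at 40.4, 37.5, 39.4 and 41.4 after ACM and at 42.9, 43.0, 45.1 and 43.0 after S1P. In KO it was at 34.8, 35.2, 38.6 and 36.1 untreated, at 38.5, 37.8, 37.5 and 36.8 after ACM and at 38.0, 38.8, 39.7 and 36.9 after S1P. The 4 untreated KO libraries all lay below the WT ones. Psma1, Psma2, Psma4, Psma5 and Psma6 were not called with S1P, with differences from -0.05 to 0.12.

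Among the chaperones, Psmd5 rose with S1P in WT by 0.18. It was at 7.40, 7.11, 7.57 and 7.51 FPKM untreated, at 7.18, 7.42, 7.09 and 6.53 after ACM and at 8.01, 8.50, 8.97 and 8.70 after S1P. In KO it was at 6.58, 6.26, 7.06 and 6.85 untreated, at 7.54, 7.15, 7.46 and 7.64 after ACM and at 6.95, 7.23, 6.97 and 6.55 after S1P. Psmd9 and Psmd10 were at -0.11 and 0.06 and were not called. The activator Psme4 rose by 0.21 and the inhibitor Psmf1 by 0.16, while Psme1, Psme2 and Psme3 (PA28 gamma, a nuclear activator) were at -0.09, 0.18 and 0.07 and did not pass. In Psme2, all WT S1P libraries nevertheless lay above the untreated WT ones. Psmf1 was at 4.33, 4.58, 4.77 and 4.49 FPKM untreated, at 5.45, 4.19, 5.62 and 5.24 after ACM and at 5.32, 4.99, 5.31 and 5.18 after S1P in WT. Among KO libraries it was at 4.43, 4.50, 5.03 and 5.10 untreated, at 4.67, 4.30, 4.39 and 4.49 after ACM and at 4.54, 5.17, 4.40 and 4.71 after S1P. Its S1P call in WT was lost without WT untreated 1 or 4 or without WT S1P 25, 27 or 28, with differences of 0.14 to 0.16.

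Other transcripts moved with S1P in the same WT libraries. The summed level of 4 cell cycle markers was 200.0 to 218 FPKM in untreated WT and 62.0 to 117 after S1P. In library WT S1P 25, Mki67, a proliferation marker, was at 46.0 FPKM, against 24.6 to 36.8 in the 3 others. The 8 macrophage markers summed to 7897 to 8094 FPKM in untreated WT and to 4646 to 6438 after S1P, with none at 0. Most of that sum is Lyz2 (lysozyme), at 5697 to 5917 FPKM untreated and 2652 to 4131 after S1P. Of the 8 markers, 5 were lower with S1P (Lyz2, Itgam, Adgre1, Mertk and Csf1r), while Cd68 was higher by 0.28, at 779 to 883 FPKM untreated and 979 to 1039 after S1P. In bulk RNA, fewer cells of a type and less RNA per cell cannot be told apart, and the part of these shifts in the proteasome result was not tested. With each library scaled to a common sum (TPM), 8 members were higher and 1 lower, against 2008 and 3158 of the 11377 genes. The share of members called higher was thus near that of all genes. The 8 were Psmb5, Psmb6, Psmc5, Psmd2, Psmd5, Psmd8, Psmd11 and Psme4. The other members called higher on the deposited scale lost that call.

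**Figure D2:**
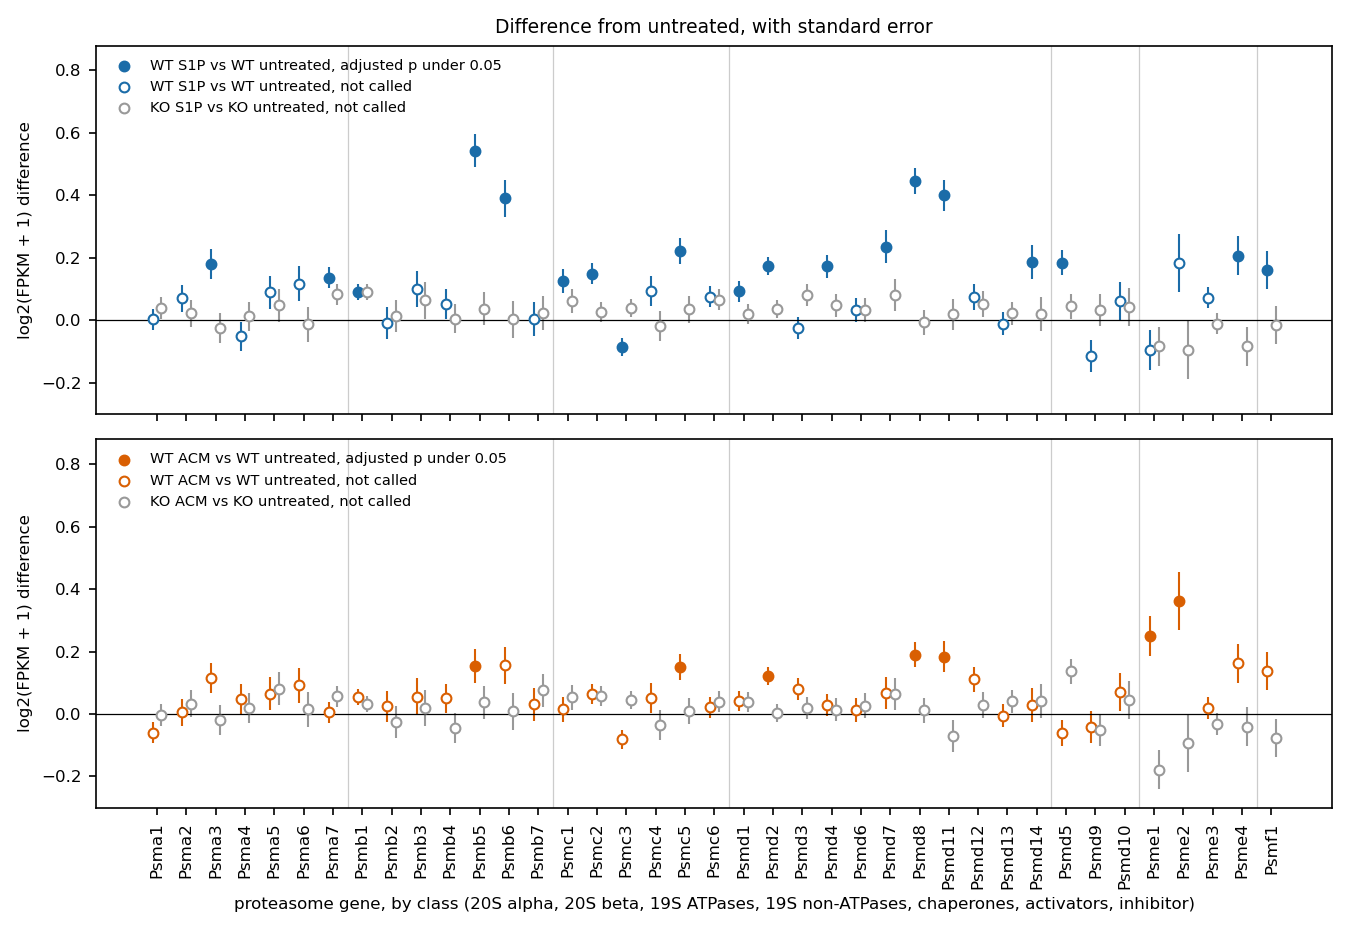
Difference of each treated group from untreated cells of the same genotype on the log2(FPKM + 1) scale, with its standard error, for the 39 genes by class; filled symbols passed an adjusted p of 0.05. With S1P (upper panel) Psmb5, Psmb6, Psmd8 and Psmd11 stand highest in WT, with ACM (lower panel) Psme1 and Psme2 do, and no KO symbol is filled.

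The promoters of the 4 genes that rose most are shown because Nfe2l1 and Nfe2l2 (NRF2) are known to bind antioxidant response elements at proteasome genes. The windows hold 250 bases before and 50 after the start of transcription, from RefSeq on GRCm38.p6, on the strand of the gene. Capitals mark the core of the element, TGACNNNGC, searched on both strands. They lie at chr14:54617946-54618245 on the minus strand (Psmb5), chr11:70525107-70525406 on the plus strand (Psmb6), chr7:29180624-29180923 on the minus strand (Psmd8) and chr11:80428365-80428664 on the plus strand (Psmd11).
Psmb5: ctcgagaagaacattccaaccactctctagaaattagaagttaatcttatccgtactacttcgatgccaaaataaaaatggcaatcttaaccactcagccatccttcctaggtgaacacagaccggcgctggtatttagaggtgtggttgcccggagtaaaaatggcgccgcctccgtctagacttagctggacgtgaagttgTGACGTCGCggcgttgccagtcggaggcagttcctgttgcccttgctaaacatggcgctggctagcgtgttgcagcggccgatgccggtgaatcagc
Psmb6: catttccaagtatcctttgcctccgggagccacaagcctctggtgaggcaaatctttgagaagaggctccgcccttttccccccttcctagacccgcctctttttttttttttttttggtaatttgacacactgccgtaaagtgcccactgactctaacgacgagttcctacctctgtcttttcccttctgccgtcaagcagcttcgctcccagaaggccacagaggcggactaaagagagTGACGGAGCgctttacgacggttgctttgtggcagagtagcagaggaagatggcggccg
Psmd8: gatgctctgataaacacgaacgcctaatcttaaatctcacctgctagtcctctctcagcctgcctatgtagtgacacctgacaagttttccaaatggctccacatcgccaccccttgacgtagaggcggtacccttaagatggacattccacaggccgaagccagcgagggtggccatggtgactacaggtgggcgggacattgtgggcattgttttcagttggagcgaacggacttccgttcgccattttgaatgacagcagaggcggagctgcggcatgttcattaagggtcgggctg
Psmd11: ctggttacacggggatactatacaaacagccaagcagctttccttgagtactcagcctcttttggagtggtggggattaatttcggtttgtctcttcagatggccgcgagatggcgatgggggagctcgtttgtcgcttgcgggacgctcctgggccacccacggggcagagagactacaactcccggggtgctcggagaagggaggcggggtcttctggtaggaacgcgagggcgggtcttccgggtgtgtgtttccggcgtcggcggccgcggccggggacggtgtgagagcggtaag
The Psmb5 window held 1 match, which began at base -47 relative to the start, and the Psmb6 window 1 match, at base -9. The Psmd8 and Psmd11 windows held none, which says only that these letters are not in them. Windows were found for 33 of the 39 members, and 6 of the 33 (18.2%) held the core: Psmb5, Psmb6, Psmc6, Psmd12, Psmd9 and Psme4. Of all 27025 genes with a window, 13.99% held it. Among members with a window, the core was in 3 of the 16 raised by S1P in WT and in 3 of the 17 others. The CCAAT box, searched likewise as CCAAT, was in 12 of 33 members (36.4%) and in 41.1% of genes, and in 6 of 16 raised and 6 of 17 other members. Both shares lay near those of all genes.

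In WT macrophages given ACM, other members differed most from untreated cells. The PA28 pair rose by 0.36 (Psme2) and 0.25 (Psme1), followed by Psmd8, Psmd11, Psmb5, Psmc5 and Psmd2 at 0.19, 0.18, 0.15, 0.15 and 0.12. These 7 members were higher and 0 lower, against 12.2% higher and 9.85% lower among all genes, and the members' median was 0.05. The 32 others were not called, with differences from -0.08 to 0.16. The Psmb5 call was lost in 12 of the 24 fits that left out 1 library, with differences from 0.09 to 0.16, and the Psmc5 call without WT untreated 4 or WT ACM 22 (0.13 each). The fit without the library labelled KO untreated 81 called 10 higher and 1 lower, adding Psmb6, Psmd12 and Psme4 above and Psmc3 below. Scaling to a common sum moved the median of all genes by -0.11 in this comparison, and then 0 members were higher and 3 lower, with 471 genes higher and 2751 lower in all against 1390 and 1121 on the deposited scale. No direction for the members as a group holds under both scalings. Other markers moved with ACM in the same WT libraries. The cell cycle markers summed to 155 to 164 FPKM after ACM and the macrophage markers to 6544 to 7275, both below every untreated WT library, with Lyz2 and Itgam lower and Cd68, Fcgr1 and Cd14 higher. The part of these shifts in the ACM result was not tested.

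Psme2 was at 77.3, 83.0, 86.2 and 77.9 FPKM in untreated WT libraries, at 97.1, 99.98, 111 and 110.2 after ACM, and at 96.0, 94.2, 89.6 and 89.2 after S1P. In KO it was at 74.3, 70.3, 108 and 71.3 untreated, where 108 belongs to the library labelled KO untreated 81, at 69.7, 72.3, 77.2 and 79.6 after ACM, and at 71.7, 81.1, 69.5 and 75.9 after S1P. All WT ACM libraries lay above the untreated ones (0.36 ± 0.093, adjusted p = 0.00776), and 81 lay within the WT ACM range. Of the Psme2 transcript, 76.6% matched other annotated genes over words of 50 bases, and its near copy Psme2b, a protein-coding gene at 24.2 ± 1.74 FPKM after ACM and 19.03 ± 2.93 untreated in WT (SD, n = 4 each), can take reads from it or give reads to it, so its level is uncertain. The difference kept its direction at 0.25 with libraries scaled to a common sum, where the adjusted p was 0.0761.

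Psme1 was at 53.0, 56.9, 61.1 and 55.4 FPKM in untreated WT libraries, at 66.9, 64.6, 69.7 and 68.3 after ACM, and at 57.9, 55.1, 50.9 and 48.0 after S1P. In KO it was at 56.3, 55.0, 69.8 and 60.9 untreated, with 69.8 in the library labelled KO untreated 81, at 51.9, 51.8, 54.0 and 55.1 after ACM, and at 53.1, 58.4, 56.5 and 59.5 after S1P. It rose with ACM in WT (0.25 ± 0.064, adjusted p = 0.00755), a difference that was 0.13 with libraries scaled to a common sum (adjusted p = 0.190, limma). With S1P it was at -0.09 and was not called. Psme1 and Psme2 lie on chromosome 14 at 55578123-55581529 (plus strand) and 55587441-55591113 (minus strand) of GRCm38, and the exons of Psme1 overlap those of Emc9 on the other strand. In a direct comparison of the WT treatments, Psme1 was lower after S1P than after ACM (-0.34 ± 0.064, adjusted p = 0.000178), and Psme2 was at -0.18 and was not called.

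**Figure D3:**
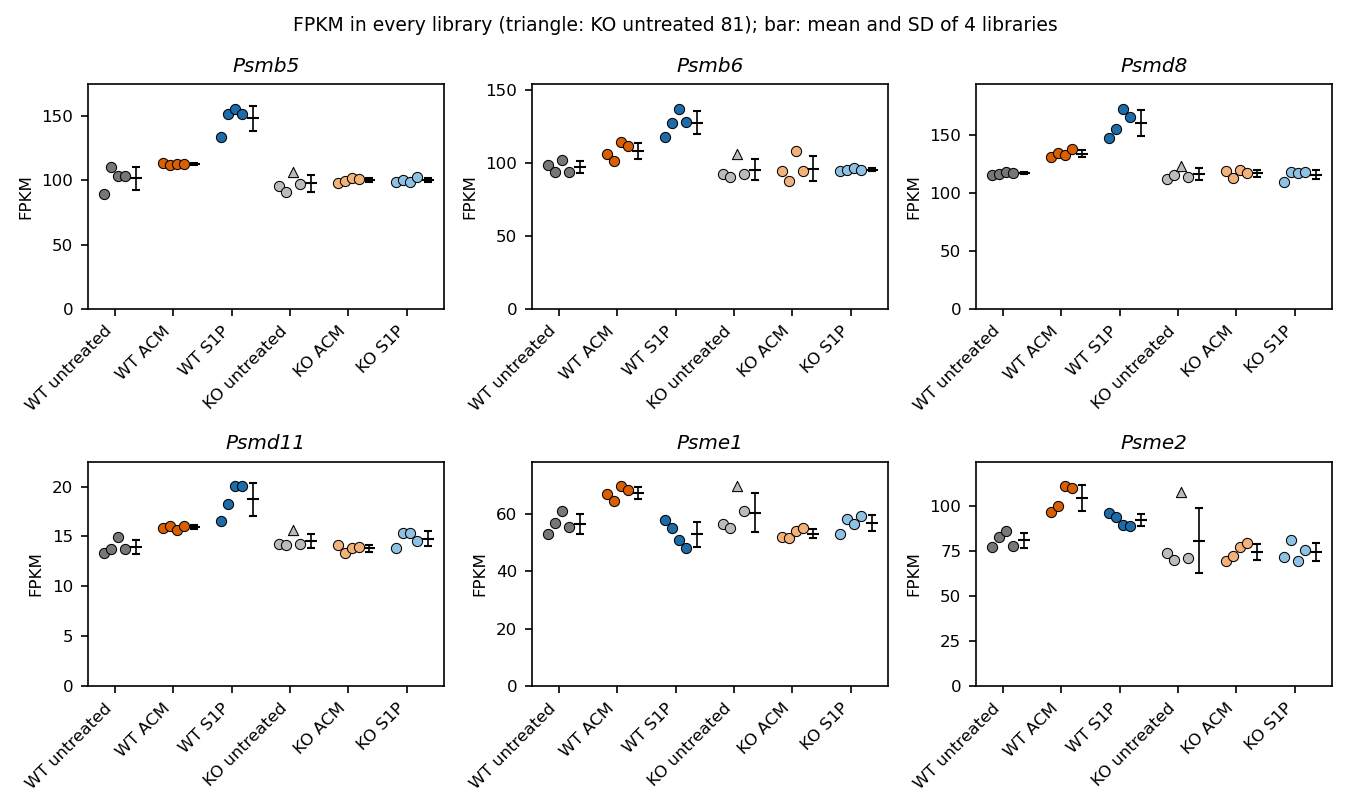
FPKM of the 4 subunits that rose most with S1P in WT and of the PA28 pair, in each of 24 libraries by group; bars give mean and SD of 4 libraries, and the triangle is the library labelled KO untreated 81. WT S1P points of Psmb5 and Psmd8 sit above all others, while Psme1 and Psme2 are highest after ACM in WT and in the triangle.

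Between the treatments in WT, 11 members were higher and 2 lower after S1P than after ACM, against 18.5% and 23% of all genes. Psmb5, Psmd8, Psmd5, Psmb6 and Psmd11 were higher by 0.39, 0.26, 0.25, 0.23 and 0.22. The lower members were Psme1 and Psmd3, the latter by -0.10. Psmd7, Psmd14, Psmd4, Psma7, Psmc1 and Psmc2 were higher by 0.17, 0.16, 0.14, 0.13, 0.11 and 0.09. Leaving out 1 library at a time lost the calls of Psmd14 (0.14 to 0.15), Psmc2 (0.07 to 0.09) and Psmd3 (-0.07 to -0.09) in 4 of 24 fits each, of Psmc1 in 3 (0.08 to 0.10) and of Psmd7 without WT S1P 27 (0.13). With libraries scaled to a common sum, Psmd3 was at -0.03 and was not called. The comparisons with untreated cells share those controls. Side by side, the 5 members called higher in both WT treatments were Psmb5, Psmc5, Psmd11, Psmd2 and Psmd8, which are 5 of 18 with S1P and 5 of 7 with ACM. The like overlap over all genes was not counted, so these numbers do not set the members apart from other genes.

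Immunoproteasome subunits take the places of the catalytic subunits in newly built cores. Of the 3, Psmb8 and Psmb10 rose with ACM in WT and 0 were called with S1P. Psmb8, the counterpart of Psmb5, was at 56.2, 56.4, 56.2 and 55.1 FPKM untreated, at 69.2, 66.2, 68.7 and 64.2 after ACM and at 62.0, 58.2, 54.7 and 47.3 after S1P. Psmb10, that of Psmb7, was at 41.9, 45.3, 45.7 and 40.3, at 53.4, 51.2, 53.1 and 50.4, and at 45.5, 45.7, 43.6 and 44.2. Both were called higher with ACM, each by 0.26. Psmb9, that of Psmb6, was at 19.9, 19.1, 22.2 and 19.98, at 23.4, 21.7, 24.4 and 21.7, and at 20.01, 19.2, 16.01 and 14.2, and was not called in either treatment (0.16 with ACM, -0.22 with S1P). In KO, the 3 genes spanned 48.0 to 55.1, 35.8 to 42.9 and 17.1 to 20.9 FPKM (Psmb8, Psmb10, Psmb9) over 11 libraries, and were at 68.1, 57.02 and 24.6 in the library labelled KO untreated 81. All 3 were lower in KO than in WT after ACM.

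The ratio of Psmb8 to Psmb5 was 0.555 ± 0.051 in untreated WT libraries, 0.596 ± 0.018 after ACM and 0.378 ± 0.065 after S1P (SD, n = 4 each). That of Psmb9 to Psmb6 was 0.209 ± 0.0074, 0.211 ± 0.011 and 0.137 ± 0.028. That of Psmb10 to Psmb7 was 1.83 ± 0.065, 2.16 ± 0.13 and 1.89 ± 0.042. The S1P values of the first 2 ratios and the ACM value of the last did not overlap the untreated ones. Each of these 3 had p = 0.0286 in a two-sided exact permutation test, the smallest that 4 against 4 libraries allow. After Benjamini-Hochberg adjustment over 6 such tests each was at 0.0571, so none passed. With 3 of 6 tests at that smallest p none can pass, so the tests do not decide whether these ratios differ. In KO, untreated and after ACM and S1P, the group means were 0.551, 0.516 and 0.521 for the first ratio, 0.208, 0.192 and 0.191 for the next and 1.91, 1.66 and 1.73 for the last. Without the library labelled KO untreated 81 the untreated means were 0.522, 0.200 and 1.81.

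**Figure D4:**
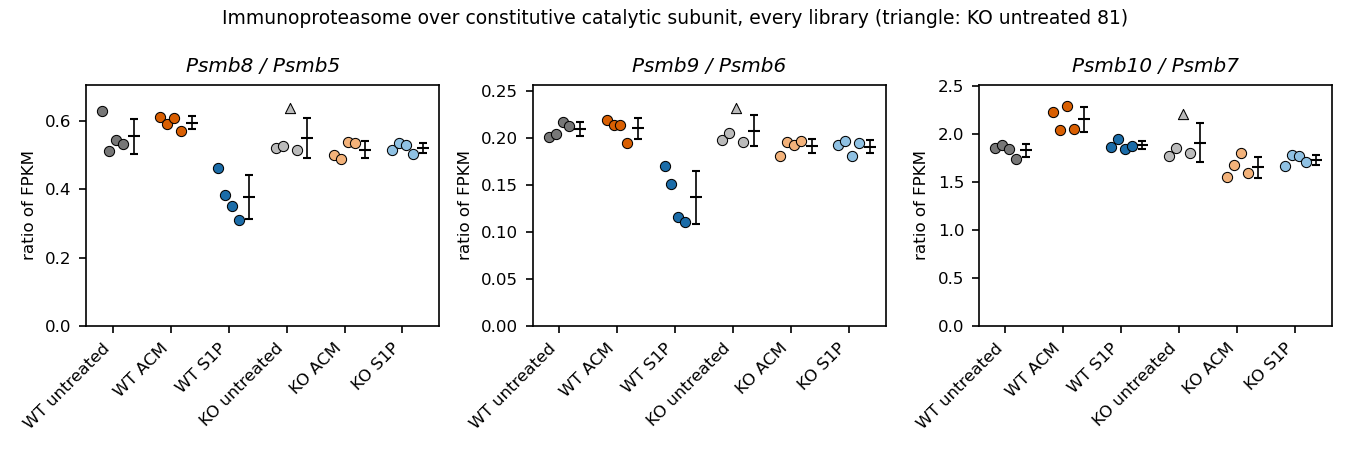
Ratio of the FPKM of each immunoproteasome subunit to that of the constitutive catalytic subunit it replaces, in every library by group, with mean and SD of 4 libraries; the triangle is the library labelled KO untreated 81. The 4 WT S1P libraries sit below the untreated WT libraries for Psmb8 over Psmb5 and Psmb9 over Psmb6, and overlap them for Psmb10 over Psmb7.

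In KO macrophages no member was called with either treatment, which does not show that none changed. With ACM, 0 of 39 members were called, with a median difference of 0.02, against 0.00879% of all genes called in either direction. At an unadjusted p under 0.05 were 2 members and 1043 of the 11377 genes. With S1P, 0 of 39 were called, with a median of 0.03, again against 0.00879% of all genes called. There 3 members were at an unadjusted p under 0.05. The share of all genes at that unadjusted p is not given here for S1P or for the fits and comparisons that follow. Without the library labelled KO untreated 81, 0 members were called in either comparison, 7 and 9 were at an unadjusted p under 0.05, and 0.044% and 0.185% of all genes were called. Psmb5 was at 100.1 ± 1.78 FPKM after ACM and 100.04 ± 1.77 after S1P in KO, and at 97.7 ± 6.60 untreated or 94.6 ± 3.34 without 81. Between the treatments in KO, 0 members were called and 2 were at an unadjusted p under 0.05, with 0.0352% of all genes called. All 4 KO libraries given ACM lay above the untreated ones in Psmd5, by 0.14 (adjusted p = 0.313, limma). All counts of 0 come from limma, the tool used for every gene-wise test.

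Between untreated KO and WT macrophages, 1 member was called. Psma7 was lower in KO by -0.12 ± 0.033 (adjusted p = 0.0499), and 0 were higher, against 1.26% of all genes higher and 1.21% lower. That call was lost in 19 of the 24 fits that left out 1 library. Without the library labelled KO untreated 81, 8 members were lower and 0 higher (4.12% of all genes higher and 4.03% lower). They were Psma4, Psma7, Psmb7, Psmd1, Psmd5, Psmd6, Psmd13 and Psmd14. In that fit Psma7 and Psmd5 were each lower by -0.15, and the members' median difference was -0.09 against -0.05 with the library in. The macrophage markers summed to 4620 to 5036 FPKM in those 3 KO libraries and to 6715 in 81, below every untreated WT library. Most of that sum is Lyz2, at 2495 to 2941 and at 4258. In those 3 libraries Fcgr1 and Cd14 were also below every untreated WT library, while Csf1r and Mertk were above. Adgre1, Cd68 and Itgam overlapped untreated WT. After ACM the sum was 4798 to 5167 in KO and below WT, and after S1P, at 4913 to 5105, it overlapped WT. The part of these marker differences in the genotype differences of the members was not tested.

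After ACM, 15 members were lower in KO than in WT and 0 were higher, with 12.5% of all genes higher and 15.5% lower. Psme2, Psme1 and Psme4 led with -0.48 ± 0.093, -0.33 ± 0.064 and -0.23 ± 0.063 (adjusted p = 0.000492, 0.000403 and 0.0093). Psmd8 and Psmd11 were both at -0.19, Psmb5 and Psmb6 both at -0.17, Psmd2 at -0.16 and Psma3 at -0.15. Psma4, Psmb4, Psmd1, Psmd3, Psmd6 and Psmd12 were lower by -0.11 to -0.14. None of the 6 ATPases was called. Leaving out 1 library at a time lost the call of Psma4 in 10 of 24 fits, of Psmd6 in 6, of Psmb4, Psmb6 and Psmd12 in 5 each and of Psma3 in 4, in each case among them without KO ACM 85 (values in the fits that lost it from -0.10 to -0.17). Those of Psmb5 (-0.16), Psmd1 (-0.09 each) and Psmd3 (-0.09) were lost without KO ACM 85, without WT ACM 22 or KO ACM 87, and without WT ACM 19. The count was 8 without KO ACM 85 and 9 without WT ACM 22. With libraries scaled to a common sum it was 2, Psme1 and Psme2, with 964 genes lower and 1658 higher in all. That scaling without the short gene Gm23935 gave 6 lower and 2 higher, with 1339 genes lower and 2169 higher in all. The number of lower members, and how it compares with all genes, thus depends on the scaling.

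Psme4 was at 14.7, 13.0, 14.5 and 14.4 FPKM untreated, at 15.9, 16.6, 15.7 and 15.6 after ACM and at 15.99, 15.9, 16.5 and 17.5 after S1P in WT. Among KO libraries it was at 12.9, 13.3, 16.7 and 13.0 untreated, with 16.7 in the library labelled KO untreated 81, at 13.9, 14.1, 12.4 and 13.6 after ACM and at 13.98, 13.3, 12.6 and 12.3 after S1P. The treated WT libraries all lay above the treated KO libraries.

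After S1P the genotypes differed in 21 members, 20 of them lower and 1 higher in KO, while 26.9% of all genes were higher and 25.4% lower. Psmb5 was at 148 ± 9.83 FPKM in WT and 100.04 ± 1.77 in KO (SD, n = 4 each), a difference of -0.56 ± 0.053 (SE, adjusted p = 1.76e-08). Psmd8 was at 160.2 ± 11.4 and 116 ± 3.94 (-0.46), Psmb6 at 127 ± 8.09 and 95.3 ± 0.99 (-0.41), and Psmd11 at 18.7 ± 1.67 and 14.8 ± 0.73 (-0.32). Psme2 and Psme4 were both at -0.31 and Psmd5 at -0.27. In the cap, Psmc1, Psmc2, Psmc4, Psmc5, Psmd1, Psmd2, Psmd4, Psmd6, Psmd7 and Psmd14 were lower by -0.13 to -0.25. In the alpha ring, Psma2, Psma3 and Psma7 were lower by -0.11 to -0.22. The Psma2 call was lost in 6 of the 24 fits that left out 1 library (-0.10 to -0.11), and that of Psmc4 without WT S1P 27, KO S1P 91 or KO S1P 93 (-0.11 to -0.13).

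Psmd9 was the 1 member higher in KO after S1P, by 0.13 ± 0.052 (adjusted p = 0.0338). Its values in WT were 4.57, 4.69, 4.56 and 4.53 FPKM untreated, 4.89, 4.19, 4.57 and 4.09 after ACM and 4.47, 4.27, 3.94 and 3.98 after S1P. In KO they were 4.60, 4.33, 4.32 and 4.95 untreated, 4.20, 4.13, 4.34 and 4.74 after ACM and 4.73, 4.41, 4.50 and 5.05 after S1P. The S1P groups overlapped, and the call was lost without WT S1P 27, WT S1P 28, KO S1P 91 or KO S1P 94, where the difference was between 0.10 and 0.13. Granulocyte markers are a list of other bone marrow cells. They summed to 5.37 to 10.7 FPKM in WT and to 15.2 to 23.2 in KO libraries other than 81. The 4 cell cycle markers summed to 62.0 to 117 FPKM in WT and 181 to 184 in KO after S1P. After ACM their sums were 155 to 164 in WT and 186 to 193 in KO. Untreated, they were 200.0 to 218 in WT and 182.6 to 183.8 in KO without 81. The part of both lists in the genotype differences was not tested.

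**Figure D5:**
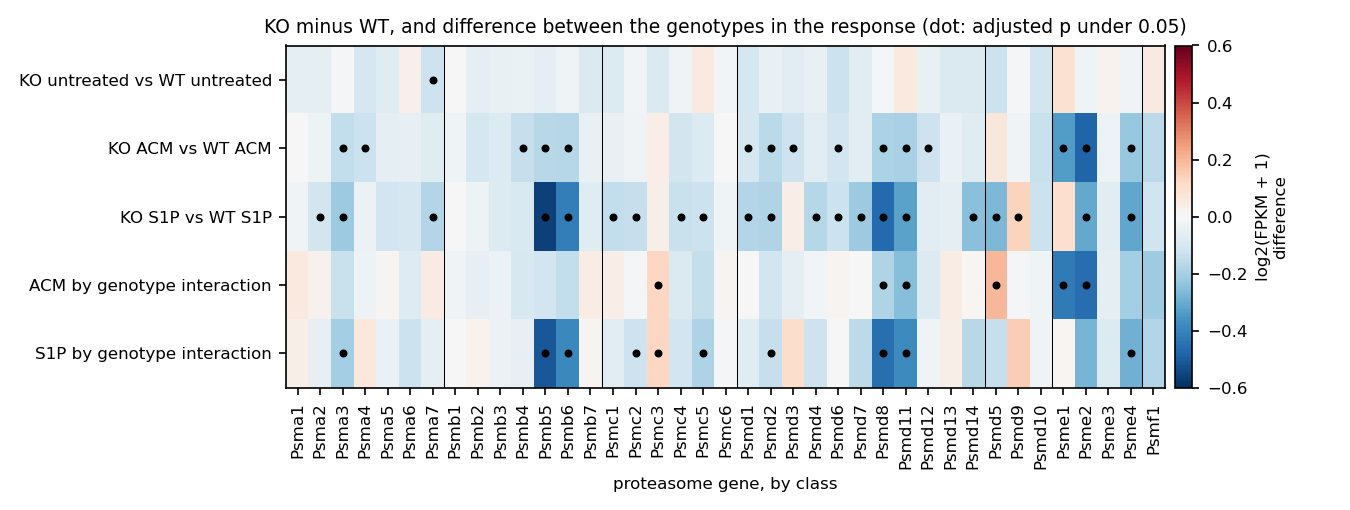
KO minus WT difference within each treatment and the difference between genotypes in the response to each treatment (interaction), on the log2(FPKM + 1) scale, for the 39 genes by class; a dot marks an adjusted p under 0.05. Dots number 1, 15 and 21 in the 3 genotype rows, 6 in the ACM interaction and 10 in the S1P interaction, and the darkest cells are Psmb5 and Psmd8 with S1P and Psme2 with ACM.

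Whether the response itself differed between the genotypes was tested by the interaction of treatment and genotype. A negative value means that the KO difference from untreated cells lay below the WT one. For S1P, 9 of 39 members were called with a negative and 1 with a positive value, against 19.4% and 22.5% of all genes. The negative share was near that of all genes and the positive share below it. Psmb5, Psmd8, Psmb6 and Psmd11 differed by -0.51 ± 0.075, -0.45 ± 0.058, -0.39 ± 0.083 and -0.38 ± 0.070 (adjusted p = 1.46e-05, 2.31e-06, 0.000694 and 0.000156). Psme4, Psma3, Psmc5, Psmd2 and Psmc2 followed with -0.29, -0.20, -0.19, -0.14 and -0.12. Psmc3 had 0.12, from -0.09 in WT (called) and 0.04 in KO (not called). Without the library labelled KO untreated 81 the 4 leading values were -0.46, -0.42, -0.34 and -0.35 in that order, with 8 members negative and 2 positive (19.2% and 22.3% of all genes); Psmc2 was no longer called and Psmd3 was (0.13). The Psmc2 call was lost in 8 of the 24 fits that left out 1 library (-0.10 to -0.12) and that of Psmc3 without WT untreated 4 (0.10). Psmb7 was not called.

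For ACM, 4 of 39 members were called with a negative and 2 with a positive value, against 9.64% and 7.41% of all genes. Both shares were near those of all genes. Psme2 and Psme1 differed by -0.46 ± 0.13 and -0.43 ± 0.090 (adjusted p = 0.0209 and 0.0024), Psmd11 by -0.25 and Psmd8 by -0.18. Psmd5 had 0.20, from -0.06 in WT and 0.14 in KO, and Psmc3 had 0.13, from -0.08 and 0.04, none of these 4 called. Without the library labelled KO untreated 81, Psme2, Psme1 and Psmd11 remained negative (-0.31, -0.36 and -0.22) and Psmd5 positive (0.22), with 8.74% and 6.17% of all genes called. Without WT ACM 22 the count was 3 and Psmd5, at 0.17, was not among the calls. The calls of Psmd8 and Psmc3 were lost in 8 and 10 of the 24 fits that left out 1 library (-0.15 to -0.18 and 0.10 to 0.13). Libraries scaled to a common sum gave 1 negative and 2 positive, a scaling that moved the median of all genes by 0.11 here.

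Genes around the proteasome were counted by list. Over 39 such genes in 10 lists, 12 were called higher and 0 lower with ACM in WT, and 18 were higher and 4 lower with S1P in WT. In KO, 0 were called with either treatment, with or without the library labelled KO untreated 81. At an unadjusted p under 0.05 in KO were 1 with ACM, against 1043 of the 11377 genes, and 2 with S1P. Of all genes in WT, 12.2% were higher and 9.85% lower with ACM, and 25.2% and 27.2% with S1P. Of 7 genes for the transcription of proteasome genes, 2 were higher with ACM (Nfe2l1 by 0.25 and Sel1l by 0.20), and 3 were higher and 1 lower with S1P. Nfe2l1 was at 57.1, 56.3, 59.1 and 58.1 FPKM in untreated WT libraries, at 69.1, 67.5, 69.0 and 70.2 after ACM and at 81.6, 87.3, 103 and 102 after S1P. It rose by 0.68 ± 0.051 with S1P (adjusted p = 5.42e-10) and lay between 58.1 and 62.0 FPKM in 11 KO libraries and at 64.7 in the library labelled KO untreated 81. Sel1l rose by 0.50 and Ddi2, the protease that activates Nfe2l1, by 0.21 with S1P, while Nfe2l2 was lower by -0.09.

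Of the 3 stress-inducible adaptors, 2 were higher with ACM and 3 with S1P in WT. Sqstm1 (p62), which binds ubiquitin chains for autophagy, was at 145 to 153 FPKM untreated, at 271 to 289.6 after ACM and at 497, 661, 988 and 931 after S1P, the lowest again in WT S1P 25. It rose by 0.90 and 2.30. Zfand2a rose by 0.22 and 0.55, and Zfand5, a proteasome activator, rose with S1P by 0.75. Among the ubiquitin genes, Ubb and Rps27a rose with S1P (0.30 and 0.10). The 3 segregase genes, which extract ubiquitinated proteins, all rose with S1P (Vcp by 0.30, Nploc4 by 0.27, Ufd1 by 0.22), and Vcp and Nploc4 with ACM (0.10 and 0.14).

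Of 2 further cap subunits, Adrm1, a ubiquitin receptor, rose with ACM (0.12) and S1P (0.29). Among the shuttle factors, Ubqln1 rose with ACM (0.11), and Rad23b and Ubqln1 rose with S1P (0.20 and 0.14). Of 5 genes for proteasome-bound proteins, deubiquitinases among them, 0 were called with ACM. With S1P, Txnl1 rose by 0.28, and the deubiquitinases Uchl5 and Usp14 were lower by -0.39 and -0.14. Of 2 activating enzymes, Uba1 rose with both treatments, by 0.13 each, and Uba6 was lower with S1P by -0.15. None of the 5 chaperones of core assembly was called in either treatment.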

How the data were processed

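Libraries were made from oligo(dT)-captured messenger RNA after Trizol extraction, per the labels' protocols. The authors deposited FPKM per gene and library, which were not scaled to a common sum. HISAT2, STAR, StringTie, featureCounts, DESeq, edgeR and STAR-Fusion appear in the submitters' processing notes, with mm10 and GRCm38. What each did, its version and whether counting used strand are not given in the sources used, so overlapping antisense genes cannot be told apart.

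Gene identifiers were matched to GENCODE M21 (54495 named, 37 not). Reads were recovered as FPKM times exon length, divided by the value of that product that stood for 1 read. Low values came out whole within 0.05 of a read in about 98% of cases. The 11377 genes that reached an FPKM of 1 in 4 or more of 24 libraries were tested on the log2(FPKM + 1) scale by limma (3.58.1, R 4.3.3). A single model of the 6 group means, with a variance trend, gave 11 comparisons. A gene was called where its p, adjusted by Benjamini and Hochberg over those genes, was under 0.05. The log2(FPKM + 1) scale understates changes of low genes, and the SE rests on 1 spread shared by all groups. Copies were searched as words of 50 bases shared between the principal transcript and transcripts of other genes.

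All 39 members are named. Values in every library are given for up to 4 called members with the largest rise or fall per comparison of treatment or genotype, up to 4 members called in an interaction, the 4 highest and 4 lowest in mean FPKM, and Psme1 and Psme2. Psmb8, Psmb9 and Psmb10 are always named, and up to 3 called genes of each pathway list per treatment, except that some genes of the ubiquitin and shuttle lists are not reported here. Members, lists and rules were chosen with earlier results of these data known. The alternatives were a pseudocount of 0.1, no filter, a filter at FPKM 5, scaling to a common sum (TPM), median and quantile scaling, a fit on the compared groups, leaving out each library, and, chosen after seeing the data, TPM without Gm23935.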

Additional observations from a re-analysis of the deposited data

Results flagged for a closer look

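In 16 of 234 groups of 4 libraries, 1 library lay apart from the others of its group by Dixon's ratio, a gap that chance alone gives in about 1 in 20 groups. Of these, 6 were the library labelled KO untreated 81, highest of its group in Psmb6 (106 FPKM), Psmd11 (15.6), Psmd13 (34.2), Psmd14 (37.1), Psme2 (108) and Psme4 (16.7). In the WT untreated group, library 2 was lowest in Psma3 (27.5) and Psmd14 (31.6), library 3 highest in Psmc2 (23.1) and Psme3 (37.7), and library 4 highest in Psmd13 (35.2). Among WT libraries given ACM, 22 was highest in Psmc5 (76.1) and 21 lowest in Psmd12 (35.3). Among WT libraries given S1P, 27 was highest in Psma7 (45.1) and 25 highest in Psmb7 (24.3). KO S1P 91 was lowest in Psmd8 (109.8).

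The interaction of treatment and genotype was called in 16 cases on the log2(FPKM + 1) scale, at shares near or below those of all genes. For S1P these were Psmb5 (-0.51), Psmd8 (-0.45), Psmb6 (-0.39), Psmd11 (-0.38), Psme4 (-0.29), Psma3 (-0.20), Psmc5 (-0.19), Psmd2 (-0.14), Psmc2 (-0.12) and Psmc3 (0.12). For ACM they were Psme2 (-0.46), Psme1 (-0.43), Psmd11 (-0.25), Psmd8 (-0.18), Psmd5 (0.20) and Psmc3 (0.13).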

How the results depend on the processing

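Of 92 called differences of members, 42 kept their call under all 32 alternatives and 64 when any 1 of the 24 libraries was left out, and none reversed. Scaling to a common sum changed most: the number of members called went to 3 with ACM in WT, 9 with S1P in WT, 2 for KO against WT after ACM, 3 in the ACM interaction and 5 in the S1P interaction. Gm23935, a gene with 57 bases of exon, takes 4.38 to 18.6% of a library's summed FPKM. Without it, that scaling gave 8 for KO against WT after ACM (2 higher and 6 lower, against 0 and 15) and stayed within 1.5 times the reported number elsewhere. Quantile scaling gave 7 for KO against WT after ACM, and no filter gave 3 in the ACM interaction. For untreated KO against WT the number went from 1 to 0 with a pseudocount of 0.1, no filter, common-sum, median or quantile scaling, or a fit on the 2 groups. The cause was not tested, except that fewer samples or more genes enter some of these fits. When 1 library was left out, the numbers ranged from 5 to 11 (ACM in WT), 17 to 23 (S1P in WT), 0 to 8 (untreated KO against WT), 8 to 16 (KO against WT after ACM), 18 to 23 (after S1P), 9 to 15 (S1P against ACM in WT), 3 to 7 (ACM interaction) and 9 to 13 (S1P interaction). The 3 comparisons within KO gave 0 under all alternatives. No paired analysis was possible because the groups share no library numbers.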
